A study of Mus musculus with 13 samples.

Results

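The genes of voltage-gated ion channels and their relatives were taken from 6 lists of ChIP-seq peaks in 4T1 cells, a tumor line that arose spontaneously in the mammary gland of a BALB/cJ mouse. Members were the genes whose symbol begins with Kcna to Kcnv, Scn with a number and a or b, Cacna, Cacnb, Cacng or Hcn with a number, without Kcnq5 and Kcnq1ot1. This rule found 99 of the 18560 genes that had a peak in at least 1 list. H3K27me3, a repressive histone mark, and H3K4me3, a mark of active gene starts, were each profiled in sg-Ctrl cells, which carry a non-targeting guide RNA, and in the Nup210 knockout (KO) clone N13. NUP210, a protein of the nuclear pore, and several pore proteins seen by 1 antibody (NPC) were profiled in sg-Ctrl cells alone. All cells stably expressed a guide delivered by lentivirus. Cas9 was given transiently, to cut Nup210 in the cells with the Nup210 guide. The knockout was expanded from a single cell, so a property of that clone and the loss of NUP210 cannot be told apart. Each condition had 1 library, so no difference between KO and sg-Ctrl could be tested over replicates, and the 95% intervals given cover counting error only.

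Ion channels are membrane proteins that let sodium, calcium or potassium ions cross when they open. In voltage-gated channels a charged segment of the alpha subunit moves when the membrane potential changes and opens the pore. Sodium channels start the action potential of neurons and muscle, calcium channels couple it to secretion and contraction, and potassium channels end it and set the resting potential. Auxiliary subunits change how fast the pore opens and how much of it reaches the membrane. Most of these genes are used in neurons, heart or muscle and are held off in epithelial cells, where Polycomb complexes can mark them with H3K27me3.

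By symbol, 69 of the 99 members encoded pore-forming subunits and 30 encoded auxiliary or regulatory ones. The symbols reach beyond channels opened by voltage alone. Members included 11 inward rectifiers (Kcnj) and 7 two-pore domain channels (Kcnk), which conduct potassium without a voltage sensor. Another 7 (Kcnma, Kcnn, Kcnt and Kcnu) were grouped by symbol as calcium- or sodium-activated potassium channels. RefSeq (GRCm38.p6) lists 137 protein-coding genes under the rule, and 38 of them had no peak in any list. Among these were the genes of the T-type calcium channel Cacna1h, the pacemaker channel Hcn2 and the potassium channels Kcna1, Kcnc1, Kcnh2 and Kcnj2.

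Promoters of 5 members are shown because the peaks over them represent the chromatin states described here. Each runs from 250 bases before to 50 bases after the RefSeq gene start in GRCm38.p6, 5′ to 3′ on the gene's own strand, with CpG dinucleotides in capitals. Kcna3 (chr3:107035912-107036211, plus strand), a voltage-gated potassium channel also used by T cells, lay under H3K27me3 in KO alone and has 37 CpG. Scn4b (chr9:45138374-45138673, plus strand), a sodium channel beta subunit, lay under H3K27me3 in KO alone and has 26. Scn1a (chr2:66440788-66441087, minus strand), the sodium channel of inhibitory neurons, lay under H3K27me3 in both libraries and has 5. Cacnb4 (chr2:52676094-52676393, minus strand), a calcium channel beta subunit, had H3K27me3 in both libraries and H3K4me3 in KO alone, and has 40. Kcnk5 (chr14:20181733-20182032, minus strand), an acid-sensitive two-pore channel of epithelia, had H3K4me3 in both libraries and no H3K27me3, and has 26. The windows of Scn4b and Cacnb4 are set at RefSeq starts that lie 418 and 439 bp from the starts in the lists.
Kcna3: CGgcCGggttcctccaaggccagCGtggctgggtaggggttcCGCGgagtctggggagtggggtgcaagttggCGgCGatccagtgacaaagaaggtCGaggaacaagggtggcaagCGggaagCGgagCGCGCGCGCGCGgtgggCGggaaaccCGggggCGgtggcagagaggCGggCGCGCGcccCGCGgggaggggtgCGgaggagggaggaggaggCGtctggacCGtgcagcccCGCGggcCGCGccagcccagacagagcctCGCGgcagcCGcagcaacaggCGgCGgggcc
Scn4b: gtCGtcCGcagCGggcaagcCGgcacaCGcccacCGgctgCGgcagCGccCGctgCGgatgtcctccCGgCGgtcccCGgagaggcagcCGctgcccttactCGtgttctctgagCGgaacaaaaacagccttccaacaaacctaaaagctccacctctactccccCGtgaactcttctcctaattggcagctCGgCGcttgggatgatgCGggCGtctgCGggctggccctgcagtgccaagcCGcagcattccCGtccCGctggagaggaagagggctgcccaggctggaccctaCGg
Scn1a: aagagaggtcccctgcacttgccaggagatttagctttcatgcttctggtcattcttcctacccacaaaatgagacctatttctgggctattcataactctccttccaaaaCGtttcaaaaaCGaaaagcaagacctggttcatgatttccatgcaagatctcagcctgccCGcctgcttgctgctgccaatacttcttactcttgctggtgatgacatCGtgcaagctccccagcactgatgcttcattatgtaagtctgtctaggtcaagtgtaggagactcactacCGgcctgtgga
Cacnb4: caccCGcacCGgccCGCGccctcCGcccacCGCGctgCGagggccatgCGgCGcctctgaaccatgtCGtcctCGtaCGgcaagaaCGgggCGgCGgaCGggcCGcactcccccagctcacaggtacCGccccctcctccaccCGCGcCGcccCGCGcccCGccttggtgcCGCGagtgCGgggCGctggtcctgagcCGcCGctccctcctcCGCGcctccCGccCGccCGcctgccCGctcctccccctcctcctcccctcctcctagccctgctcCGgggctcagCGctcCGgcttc
Kcnk5: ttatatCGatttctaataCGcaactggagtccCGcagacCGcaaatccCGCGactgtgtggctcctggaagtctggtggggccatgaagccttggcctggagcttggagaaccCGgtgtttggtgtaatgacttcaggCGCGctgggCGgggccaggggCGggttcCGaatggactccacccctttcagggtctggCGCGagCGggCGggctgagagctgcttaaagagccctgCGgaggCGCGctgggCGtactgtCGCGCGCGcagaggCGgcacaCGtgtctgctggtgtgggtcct

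The lists held 8874 to 13204 peaks and 5866175 to 26811061 ChIP reads in peaks. Measured against the IgG library that both marks share, KO had 3.16 times the depth of sg-Ctrl for H3K27me3 and 1.27 times for H3K4me3. Scaled reads are reads divided by this relative depth. The lists give peaks only where they meet a gene body (H3K27me3, NUP210, NPC) or the 4 kb on either side of a gene start (H3K4me3). In sg-Ctrl, 7 of 8 epithelial markers had an H3K4me3 peak and Krt5 did not. The same was true of 1 of 10 neuron markers (Map2) and 1 of 7 muscle markers (Tnnt2). The edited gene, Nup210, had 885 and 913 H3K4me3 reads at its start in sg-Ctrl and KO, which does not check a knockout made inside the gene.

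In 4T1 cells H3K27me3 was listed on more of the channel genes than H3K4me3. H3K27me3 was listed on 58 of the 99 members in sg-Ctrl (58.6%, Wilson interval 48.7 to 67.8), against 26.8% of all listed genes, and on 67 in KO (67.7%, 57.95 to 76.1), against 27.5%. H3K4me3 was listed at the start of 22 members in sg-Ctrl (22.2%, 15.2 to 31.4), against 67.1% of all genes, and at 29 in KO (29.3%, 21.2 to 38.9), against 67% of all genes. Of all 137 RefSeq channel genes, listed or not, 42.3% had H3K27me3 in sg-Ctrl and 48.9% in KO, against 19.4% and 19.96% of other protein-coding genes. Members were long, with a median of 64.9 kb against 18.4 kb for all listed genes, and longer genes meet more broad peaks.

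The marks of the members went with their length. In sg-Ctrl, 55 members had H3K27me3 alone (median length 154.9 kb), 19 had H3K4me3 alone (14.96 kb), 3 had both and 22 had neither (14.2 kb). Those with neither were listed through another library. The sodium channel alpha genes had H3K27me3 in 7 of 9 cases in sg-Ctrl and 8 of 9 in KO, and the calcium channel alpha1 genes in 7 of 8 in both. Voltage-gated potassium alpha genes had it in 14 of 25 in sg-Ctrl and 19 of 25 in KO. Auxiliary potassium channel genes went from 8 of 14 to 6 of 14.

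Between sg-Ctrl and KO, 47 members kept H3K27me3 alone, 17 kept H3K4me3 alone, 3 kept both and 6 had neither in both libraries. Of the 22 with neither mark in sg-Ctrl, 12 had H3K27me3 alone in KO, 3 had H3K4me3 alone (Kcnj4, Kcnj12 and Kcnj14) and Scn2b had both. Of the 55 with H3K27me3 alone in sg-Ctrl, 4 also had H3K4me3 in KO, Kcnn3 had H3K4me3 in its place, and 3 had neither. The 2 others, Kcne3 and Kcnip2, had H3K4me3 in sg-Ctrl and neither mark in KO.

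**Figure D1:**
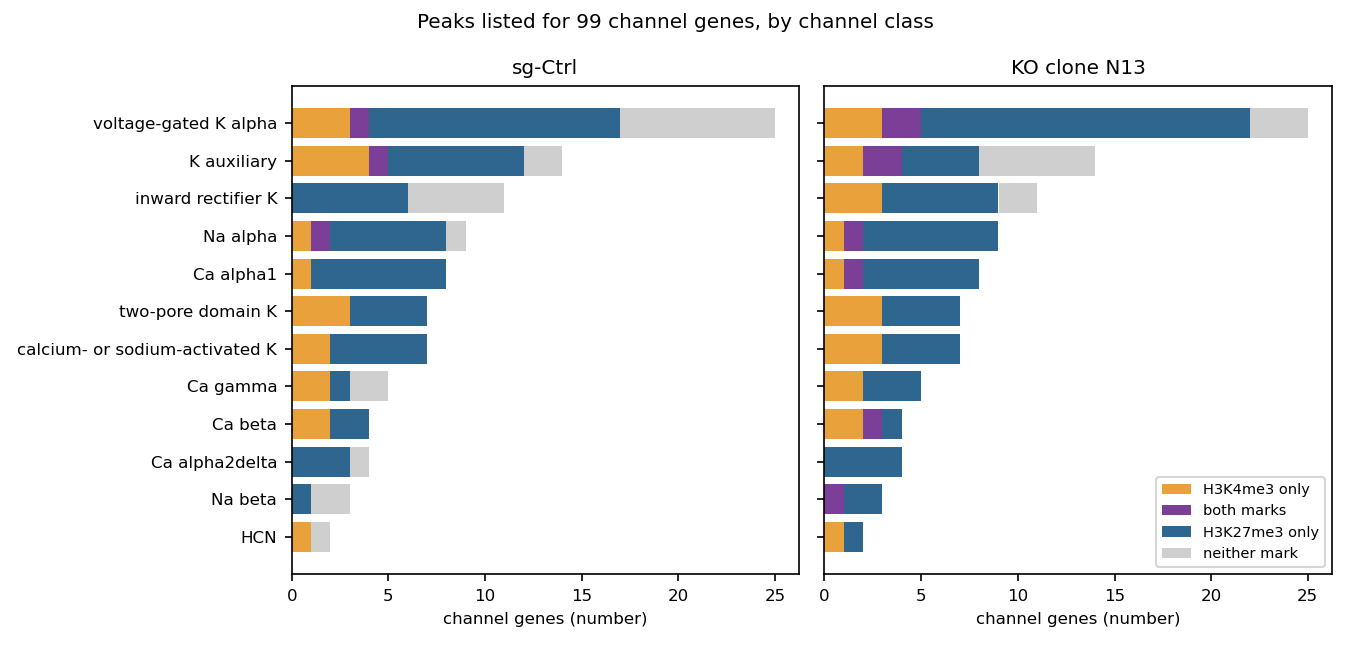
Horizontal bars give the number of channel genes of each class (horizontal axis, number of genes) with H3K4me3 alone, both marks, H3K27me3 alone or neither mark, in sg-Ctrl on the left and KO clone N13 on the right. H3K27me3 alone is the largest state in both, with 55 members in sg-Ctrl and 59 in KO, and neither mark goes from 22 to 11.

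H3K27me3 covered the greatest length on 3 voltage-gated potassium channel genes in both libraries. Kcnd2, which carries the fast A-type current of dendrites, had 437 of its 514 kb under peaks in sg-Ctrl and 418 kb in KO, with 21341 reads (Poisson interval 21060 to 21630) and 48429 (48000 to 48860). Kcnh7, an Erg-type channel, had 376 and 400 kb. Kcnb2, a delayed rectifier, had 316 and 379 kb. Also among the longest covers, Kcnq3, a subunit of the M-channel that damps repeated firing, had 258 and 265 kb. The large-conductance calcium-activated channel Kcnma1 had 190 and 239 kb.

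Calcium channel genes had covers of like length. The L-type genes Cacna1d and Cacna1c had 240 and 177 kb in sg-Ctrl and 281 and 262 kb in KO. Cacna1e, the R-type channel, had 227.5 and 236.5 kb, and the beta subunit Cacnb2 had 261 and 242 kb. All 9 of these genes stayed within 2-fold between the libraries.

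More channel genes had a longer H3K27me3 cover in KO than a shorter one. Of the 71 members with H3K27me3 in either library, 26 (36.6%, Wilson interval 26.4 to 48.2) had a covered length at least 2-fold higher in KO or a peak in KO alone, against 23.3% of all 5850 genes with the mark. Another 11 (15.5%, 8.88 to 25.65) were at least 2-fold lower or listed in sg-Ctrl alone, against 17.6%, and 34 were within 2-fold. Neighbouring genes share domains, and the 26 and 11 genes lay at 21 and 11 loci when genes within 500 kb were counted once. Peaks in KO alone were found on 13 members (18.3%, 11.02 to 28.85), at 9 loci, against 15.1% of all genes. Peaks in sg-Ctrl alone were found on 4 (5.63%, 2.21 to 13.6), which were Kcne1l, Kcnmb3, Kcnn3 and Kcng2, against 12.6%. With only genes listed in both libraries counted, 13 of 54 members were higher (24.1%, against 11.3% of all genes). Lower were 7 (12.96%, against 6.95%), so members were then above all genes in both directions.

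Summed over members, H3K27me3 covered 4758 kb in sg-Ctrl and 5691 kb in KO, a ratio of 1.196, where all genes went from 160.9 to 177.6 Mb, a ratio of 1.104. The median member with the mark had 28.2% of its body covered in sg-Ctrl and 54.4% in KO, and the medians over all genes were 64.7% and 78.0%. Over 50% of the body was covered in 23 of 58 members in sg-Ctrl (39.7%, against 59.1% of all genes with the mark) and in 35 of 67 in KO (52.2%, against 66%). A peak lay over the start of 12 of 58 members in sg-Ctrl (20.7%, against 55.7%) and of 20 of 67 in KO (29.85%, against 60.7%). Among the 54 members listed in both libraries, the median log2 ratio of covered length was 0.22 (order-statistic interval 0.06 to 0.65). It was 0.00 for all genes. Above 0 were 38 members (70.4%), against 38.45% of all genes. A gene mostly covered in sg-Ctrl has little room to gain, and one over 50% covered cannot be called 2-fold higher. Members started with less cover than all genes, so gains in cover are not compared on equal terms. The part of this in the ratios and counts was not tested.

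On each of the 54 genes, scaled reads were summed over each library's own listed peaks, at full peak width. KO over sg-Ctrl, these sums had a median log2 ratio of 0.24 (-0.10 to 0.45), against 0.13 for all genes. The ratio depends on which peaks were listed, so it does not compare the same bases. Per kb of each library's own peaks, the median was -0.18 (-0.30 to -0.04), against -0.13 for all genes. Per kb, peaks were less dense in KO on members and on all genes. The part of the greater depth of the KO library in the longer cover was not tested.

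**Figure D2:**
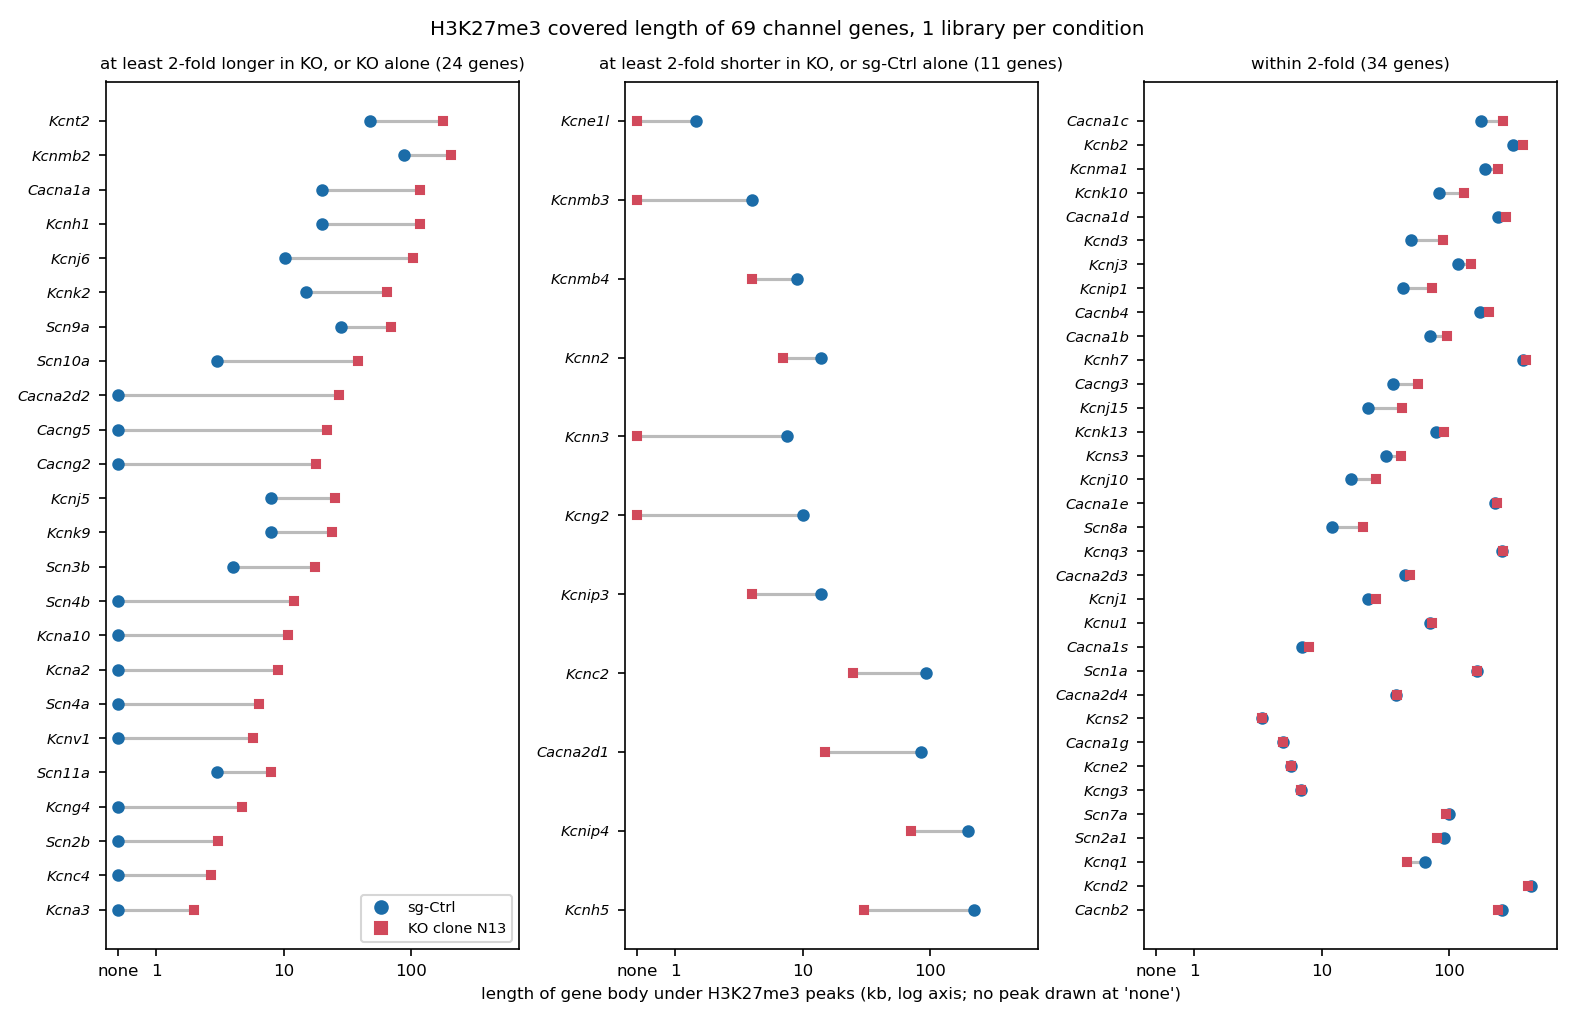
Each row is 1 of 69 of the 71 channel genes with H3K27me3, and the log axis gives the kb of its body under peaks in sg-Ctrl (blue circle) and KO (red square), with no peak drawn at none. The 3 panels hold 24 of the 26 genes that were at least 2-fold longer in KO, the 11 that were at least 2-fold shorter and the 34 within 2-fold, with Kcnt2 and Kcnh5 among the widest shifts in kb.

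Longer covers were found in every class except the calcium channel beta subunits. Among the calcium channels, Cacna1a, the P/Q-type channel of nerve endings, had 20 kb in sg-Ctrl and 118 kb in KO, with 466 and 9394 reads. Cacna2d2, an alpha2delta subunit, and Cacng2 and Cacng5, gamma subunits that escort glutamate receptors, had no peak in sg-Ctrl and 27, 18 and 22 kb in KO.

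Scn10a, Scn11a and Scn9a, sodium channels of sensory neurons, were on the higher side. Scn10a and Scn11a lie within 500 kb of each other on chromosome 9. With peaks at least 2-fold over IgG, only Scn10a of these genes stayed past 2-fold. Scn10a had 3 kb in sg-Ctrl and 38 kb in KO, Scn11a 3 and 8 kb, and Scn9a, known for its part in pain, 27.9 and 68.9 kb. The peaks that added to Scn9a in KO had folds over IgG of 0.723 to 1.25, so they were close to background. Scaled reads summed over its listed peaks had a log2 ratio of -1.10. Counted by the full width of its peaks, the cover differed by -3.003 kb. In sg-Ctrl both values took in a peak of 66 kb, also listed for Scn1a and mostly outside Scn9a. In KO this stretch was split, and its part of 40 kb, with 5628 reads, was listed for Scn1a and not for Scn9a. These 2 values therefore do not compare the same bases. Scn4a, the channel of skeletal muscle, had 6.39 kb in KO alone. All 3 listed beta subunits were higher, with Scn2b at 3.07 kb and Scn4b at 11.96 kb in KO alone and Scn3b at 4 and 17.6 kb.

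Potassium channels were also among the longer covers. Kcnt2, a sodium-activated channel, had 47.3 and 178 kb, and Kcnmb2, which inactivates the large-conductance channel, had 87.2 and 204.5 kb. Kcnh1, an Eag-type channel, had 20 and 117 kb. Kcnj6, which G proteins open, had 10.3 and 102 kb, with 377 and 8338 reads, and its relative Kcnj5 had 8 and 25.2 kb. The leak channels Kcnk2 and Kcnk9 had 15 and 65 kb and 8 and 24 kb.

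Of the 11 shorter covers, 6 lay on auxiliary subunits, of which 7 had longer covers and 7 were within 2-fold. Of the 8 auxiliary potassium channel genes with the mark, 5 were lower and 1 was higher. Of 20 voltage-gated potassium alpha genes with it, 3 were lower and 8 higher. Over all genes with the mark, 17.6% were lower and 23.3% higher, and differences between these classes were not tested. Kcnip4, which modulates A-type channels, had 199 kb in sg-Ctrl and 70.99 kb in KO, and its relative Kcnip3, also a transcriptional repressor, had 14 and 4 kb. Kcnh5, an Eag-type channel, had 219 kb with 5773 reads in sg-Ctrl and 30 kb with 1799 reads in KO. Kcnc2, a fast-spiking channel, had 92.0 and 25 kb. Cacna2d1, the alpha2delta subunit bound by gabapentin, had 85.0 and 15 kb. Kcnn2, a small-conductance calcium-activated channel, stood at the limit with 14 and 7 kb, and Kcnj15, an inward rectifier, just outside it on the higher side with 23.3 and 42.7 kb.

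Peaks at least 2-fold over IgG alone gave 22 of 64 members higher (34.4%, against 24.8% of all genes) and 11 of 64 lower (17.2%, against 22.8%). With these peaks 7 members were no longer past 2-fold, among them Cacna2d1, Scn11a, Scn9a, Scn3b, Kcnc2 and Kcnv1. Kcnt2 was shorter in KO. Cacna2d1 and Scn3b had no such peak in either library. Their best folds in sg-Ctrl and KO were 1.90 and 1.22 for Cacna2d1 and 1.98 and 1.65 for Scn3b. The peaks on members listed in KO alone had 18.2 to 35.5 scaled reads per kb, and 2 of these 13 were above the median of sg-Ctrl peaks of like width, while 10 were above the 5th percentile.

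Short channel genes held many of the longer covers. Among members under 25 kb with the mark, 9 of 13 were higher (69.2%, Wilson interval 42.4 to 87.3), against 25% of all genes of this length. The shares were 6 of 20 from 25 to 100 kb (all genes 20.2%), 7 of 19 from 100 to 250 kb (19.8%) and 4 of 19 from 250 kb (27%). The 9 short genes were Kcna2, Kcna3, Kcna10 and Kcnc4 at 1 locus, Scn2b and Scn4b at another, Scn3b, Kcng4 and Kcnv1.

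Direction varied with the chromosome. On chromosome 9, 7 of 8 members with H3K27me3 were higher and none lower, where 23.7% of all genes there were higher and the median log2 ratio of scaled reads was 0.53. On chromosome 8, with a median of 1.06 and 40.7% of all genes higher, 2 of 3 members were higher. On chromosomes 5, 10 and 18, with medians of -0.35, -0.35 and -0.78, all 6 members were lower, 2 on each, where 34.7%, 22.5% and 40.1% of all genes were lower. Without chromosomes 4, 8, 9 and 18, whose medians lie furthest from 0, 17 of 58 members were higher (29.3%, against 23.3% of all genes) and 9 of 58 lower (15.5%, against 17.2%). The part of the chromosome-wide shifts in the members' counts was not tested.

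Clusters of members on 2 chromosomes differed. On chromosome 2, the sodium channel genes Scn3a, Scn2a1, Scn1a, Scn9a and Scn7a lie in a window of 1448 kb (GRCm38, chr2:65397118-66844910), of which H3K27me3 covered 849.8 kb in sg-Ctrl and 877.9 kb in KO. Scn1a was 97.1% covered in sg-Ctrl and 97.65% in KO, over both body and start, with 15888 and 33587 reads before scaling, or 79.5 and 59.5 scaled reads per kb of peak. Scaled reads summed over each library's listed peaks had log2 ratios of -0.58 for Scn1a, -0.23 for Scn2a1, -0.58 for Scn7a and -1.10 for Scn9a. The peak split described above left part of that stretch out of the KO sums of Scn1a and Scn9a. Scn2a1, the channel of excitatory neurons, had 91 and 80 kb of its 97.0 kb, and Scn7a, a sodium sensor, 99.5 and 94.5 of 111.5 kb. Scn3a, used mostly before birth, had no H3K27me3 in either library and an H3K4me3 peak at its start in both. The edge of the neighbouring H3K27me3 domain stood 15.5 kb from the Scn3a start at the same position in both libraries.

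On chromosome 3, the potassium channel genes Kcna3, Kcna2, Kcna10 and Kcnc4 lie in a window of 542.7 kb (chr3:106976162-107518898). Listed H3K27me3 peaks covered 55 kb of it in sg-Ctrl and 249 kb in KO. A peak that meets no gene body is not in the lists, so H3K27me3 between genes could go unseen in either library. None of the 4 genes had a peak in sg-Ctrl. The nearest listed was a peak of 33 kb over the adjacent gene AI504432, which began past the end of Kcna3. In KO, peaks of 88, 47, 22 and 42 kb met Kcna3, Kcna2, Kcna10 and Kcnc4, with folds over IgG of 3.58, 3.43, 2.43 and 4.82. Of the gene bodies these peaks covered 1.97, 9.0, 10.7 and 2.70 kb. The first held 8354 reads (Poisson interval 8176 to 8535) against 872 IgG reads, and it took in the Kcna3 promoter printed above. The starts of the other three genes lay outside their peaks. Over all genes of chromosome 3 the median log2 ratio was -0.01 and 18.7% were higher.

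**Figure D3:**
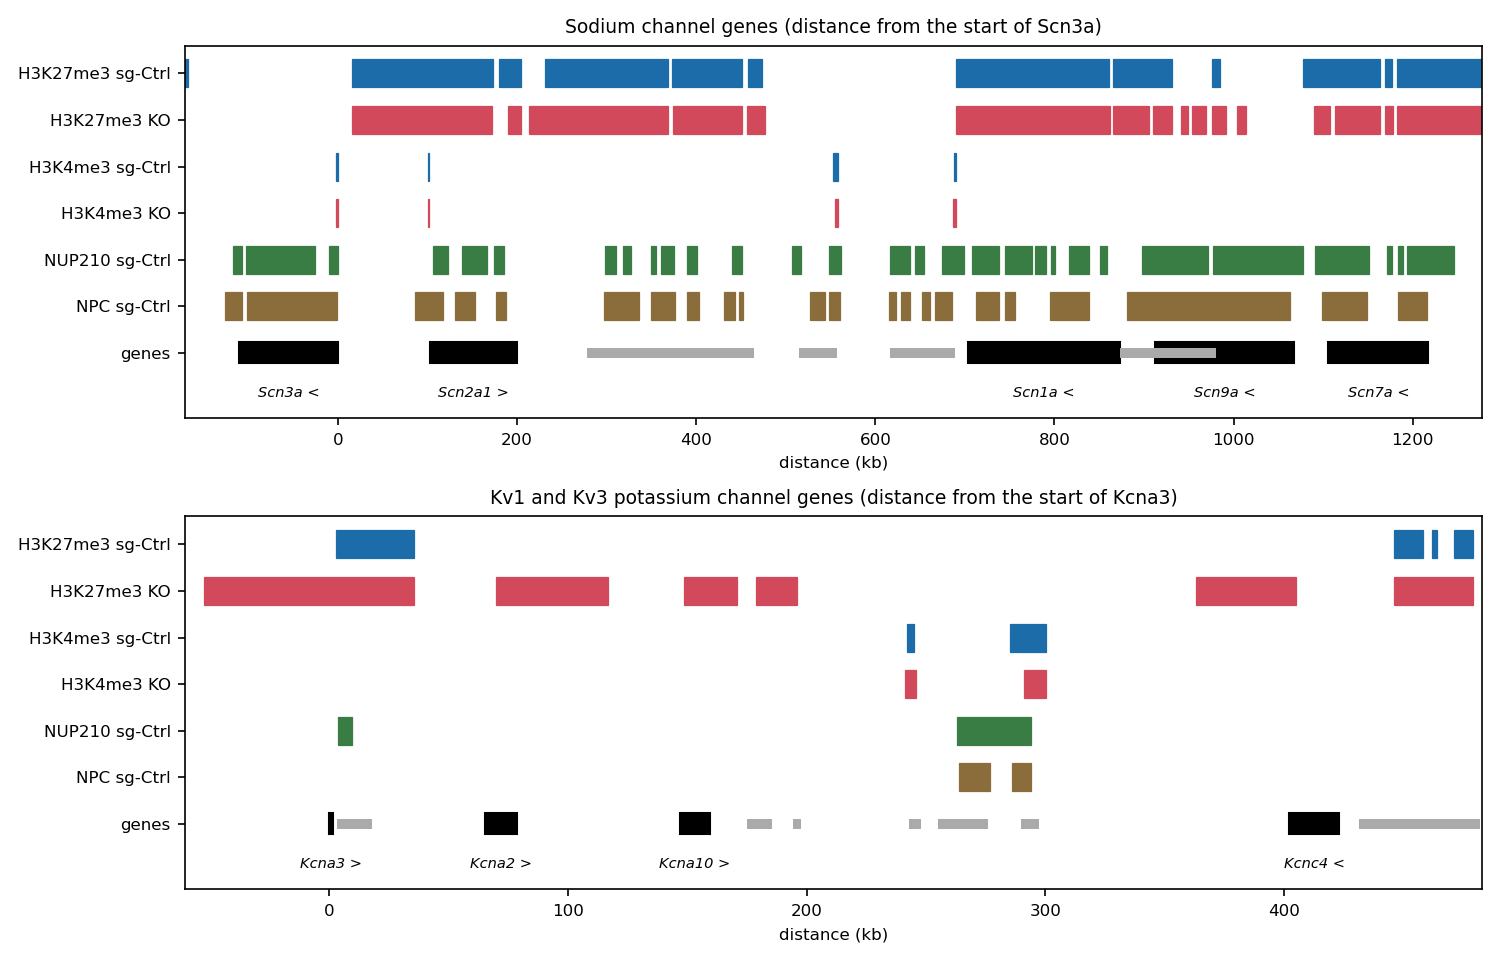
Peaks (coloured bars, by list) and gene bodies (black, channel genes with an arrow for strand; grey, other listed genes) are drawn to scale against the distance in kb from the start of Scn3a in the upper map and of Kcna3 in the lower. Listed H3K27me3 peaks cover a like length of the sodium channel window in sg-Ctrl and KO (849.8 and 877.9 kb). In the potassium channel window they cover 55 and 249 kb, with no KO peak over the Kcna2, Kcna10 or Kcnc4 starts. Peaks that meet no gene are not listed.

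Channel genes with an H3K4me3 peak were few, and the strongest peaks were listed for Hcn3, Cacnb1, Kcnk1, Kcnk5 and Kcnab3. Hcn3 had 850 scaled reads per kb of peak in sg-Ctrl and 514 in KO, Cacnb1 759 and 458, the leak channel Kcnk1 704 and 598, and Kcnk5 623 and 484. The peaks of Hcn3 and Cacnb1, like those of Cacna1f, Kcnab3 and Kcnj14, were also listed for another gene. In sg-Ctrl and KO the Hcn3 peak lay 3043 and 2843 bp from the listed start, and the Cacnb1 peak 2773 and 2173 bp. Kcnn4, an intermediate-conductance channel of epithelia and blood cells, had 336 and 331, from different peaks near its start. All of these had no H3K27me3 peak.

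Over the 20 members with an H3K4me3 peak in both libraries, KO over sg-Ctrl had a median log2 ratio of -0.20 (-0.44 to 0.44), against -0.50 for all genes, and its sign turned to 0.22 with shared peaks as the scale (all genes -0.08) and to 0.15 with no scaling (all genes -0.15). At least 2-fold higher were 4 of 20 (20%, Wilson interval 8.07 to 41.6), against 0.525% of all genes. These were Kcng3, a modifier of other potassium channels, Cacng7, a gamma subunit, Kcnh3, an Elk-type channel of forebrain, and Scn2a1. Kcng3 had 47 reads (Poisson interval 34.5 to 62.5) in sg-Ctrl and 358 (322 to 397) in KO, or 73.8 and 221 scaled reads per kb, a log2 ratio of 1.58.

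Cacng7 had 43 and 281 reads, Kcnh3 had 234 and 797, and Scn2a1 had 102 and 374, with log2 ratios of 1.56, 1.31 and 1.27. The peaks of Kcng3, Cacng7 and Scn2a1 lay 905 to 3985 bp from the listed start, and with peaks within 1 kb alone, 2 members were higher. The RefSeq starts of Cacng7 and Scn2a1 lie 3760 and 1759 bp from the listed ones. An H3K4me3 peak lay over the promoter window at these RefSeq starts in both libraries, and over that of Kcng3 in neither. Scn3a alone was at least 2-fold lower (5.0%, against 9.66% of all genes), with 710 reads (659 to 764) and 301 (268 to 337), a log2 ratio of -1.20. Among weak peaks, under a geometric mean of 200 scaled reads per kb, 4 of 11 members were higher, against 4.32% of all such genes, and 1 of 11 was lower, against 9.97%.

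An H3K4me3 peak was listed in KO alone for 9 of the 31 members with one in either library (29.0%, 16.1 to 46.6), against 1.89% of all genes. They were Cacna1g, the T-type calcium channel, Cacnb4, Scn2b, the potassium channels Kcnq1, Kcnj4, Kcnj12, Kcnj14 and Kcnn3, and Kcnmb4, a subunit of the large-conductance channel. Most were weak, with 55 to 190 reads in 8 of them, and 5 had no IgG read. The exception was Kcnj14, with 1956 reads in a peak 3853 bp from its start that is shared with Grwd1. At least 100 reads were reached by 3. Peaks in sg-Ctrl alone were listed for Kcne3 (56 reads) and Kcnip2 (97 reads), 2 of 31 (6.45%, against 2.02%).

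Both marks together were found on 3 members in sg-Ctrl (3.03%, against 3.88% of all genes), Kcnip3, Scn2a1 and Kcng3, and on 8 in KO (8.08%, against 3.22%). Those added in KO were Cacna1g, Cacnb4, Kcnmb4, Kcnq1 and Scn2b. Of these, 4 carried H3K27me3 alone in sg-Ctrl and Scn2b carried neither mark. The marks come from separate libraries, so whether they lie on the same chromatin was not tested.

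**Figure D4:**
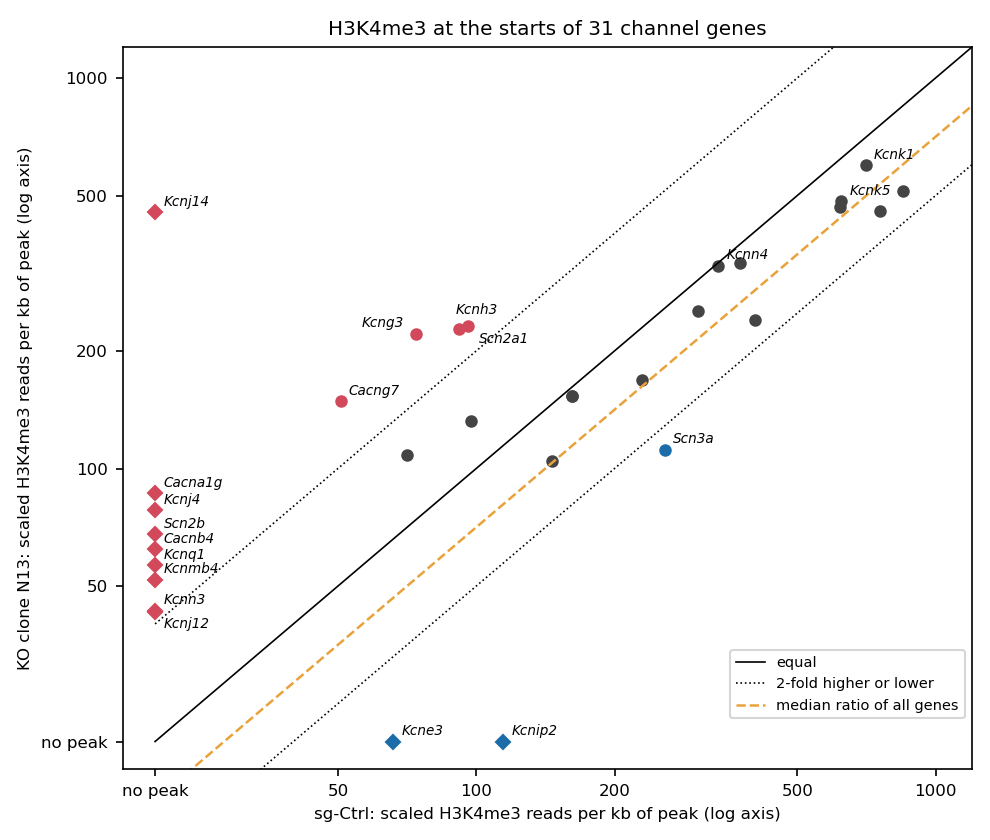
Each point is 1 of 31 channel genes, with scaled H3K4me3 reads per kb of peak in sg-Ctrl on the horizontal and in KO on the vertical log axis, diamonds on an axis for genes with a peak in 1 library alone, and lines for equality, 2-fold limits and the median ratio of all genes. Kcng3, Cacng7, Kcnh3 and Scn2a1 stand above the upper 2-fold line, Scn3a below the lower one, and 9 genes have a peak in KO alone.

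NUP210 peaks met 40 members (40.4%, Wilson interval 31.3 to 50.25), against 33.9% of all listed genes, and NPC peaks met 37 (37.4%, 28.5 to 47.2), against 30.8%. Of the 40, 35 also had an NPC peak (87.5%, against 77.8% of all genes with NUP210), and 37 of the 99 members had a NUP210 peak at an FDR of at most 0.05 (37.4%, against 27.1%). The 40 members with NUP210 and the NPC counts above took in every listed peak. Of all listed peaks, 4093 of 13204 for NUP210 and 5427 of 11234 for NPC had an FDR over 0.05. With peaks at an FDR of at most 0.01 alone, NUP210 met 35 members and NPC met 27. The peaks were weak. The best NUP210 peak of a member had a median fold over IgG of 1.35, against 1.24 for all genes. Only 6 members had a NUP210 peak and 1 an NPC peak at 2-fold or more. Shares of all genes were not taken at this fold or at an FDR of at most 0.01. Whether members differ from all genes at these cuts was therefore not tested. The highest folds were 2.92 on Kcnk13, a two-pore channel of microglia, 2.31 on Kcnj16, 2.29 on Kcnh8, 2.24 on Kcnip4, 2.22 on Cacna1c and 2.10 on Kcnb2.

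Members with NUP210 were long, with a median of 221.7 kb against 30.4 kb for those without. Kcnip4 had 513 kb under NUP210 peaks, Kcnh7 412 kb, Kcnd2 383 kb, Kcnt2 319 kb and Cacna2d1 252 kb. These lengths took in every listed peak. In the same order, 21 of 30, 9 of 10, 15 of 17, 8 of 9 and 13 of 13 NUP210 peaks had an FDR of at most 0.05. NUP210 was listed on 31 of the 58 members with H3K27me3 in sg-Ctrl (53.45%, against 46.6% of all such genes) and on 9 of the 41 without it (21.95%, against 29.2%). On 6 members, Kcnab1, Kcnrg, Kcnj13, Kcnj16, Kcna4 and Kcnh8, NUP210 was listed and no histone mark in either library (6.06%, against 4.18% of all listed genes).

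Longer H3K27me3 covers in KO took a smaller share of the members with NUP210 than of those without, as they did among all genes. Of the 33 members with both NUP210 and H3K27me3 in either library, 7 were higher (21.2%) and 5 lower (15.15%), against 17.98% and 13.5% of all such genes. Of the 38 with H3K27me3 and no NUP210, 19 were higher (50%) and 6 lower (15.8%), against 27.5% and 20.9%. The difference between the shares was not tested, and gene length differs between the 2 sets in the same direction.

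To set channels beside other neural genes of like length, RefSeq protein-coding genes with no H3K4me3 peak in sg-Ctrl were compared. These numbered 115 of 137 channel genes (83.9%), 67 of 73 receptor genes for glutamate, GABA, glycine and acetylcholine, 40 of 46 synaptic adhesion and scaffold genes, and 9943 of 21371 others. RNA was not analysed here, so the lack of a peak was not checked against expression. H3K27me3 in sg-Ctrl was listed on 47.8% of these channel genes (38.9 to 56.9), 61.2% of the receptor genes (49.2 to 71.95), 47.5% of the adhesion genes (32.9 to 62.5) and 35.45% of the others (34.5 to 36.4).

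The shares were then taken within bands of gene length. Under 25 kb, 10.3% of channel genes had H3K27me3 in sg-Ctrl (4.06 to 23.6), below the 26.4% of other genes (25.3 to 27.4), and 28.2% had it in KO (16.5 to 43.8), against 30.1%. From 25 to 100 kb the shares of channel and other genes in sg-Ctrl were 45.7% and 46.96%. From 100 to 250 kb they were 82.35% (59.0 to 93.8) and 66.5% (62.8 to 70.0), and from 250 kb 87.5% (69.0 to 95.7) and 80.05% (75.8 to 83.7). Receptor genes had, from the shortest band to the longest, 21.05% (8.51 to 43.3), 64.7% (41.3 to 82.7), 76.9% (49.7 to 91.8) and 88.9% (67.2 to 96.9), and their intervals overlapped those of channel genes in every band. Adhesion genes had 59.3% (40.7 to 75.5) in the longest.

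At 100 kb or longer, 85.4% of 41 channel genes, 83.9% of 31 receptor genes and 56.7% of 30 adhesion genes had H3K27me3 in sg-Ctrl. From 250 kb, NUP210 was listed on 83.3% of channel genes, 77.8% of receptor genes, 85.2% of adhesion genes and 76.2% of others, and under 25 kb on 10.3% of channel genes and 18.96% of others. Of the channel genes in this comparison with H3K27me3 in either library, 26 of 68 were higher in KO (38.2%), against 13 of 49 receptor genes (26.5%), 11 of 25 adhesion genes (44%) and 23.25% of others.

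**Figure D5:**
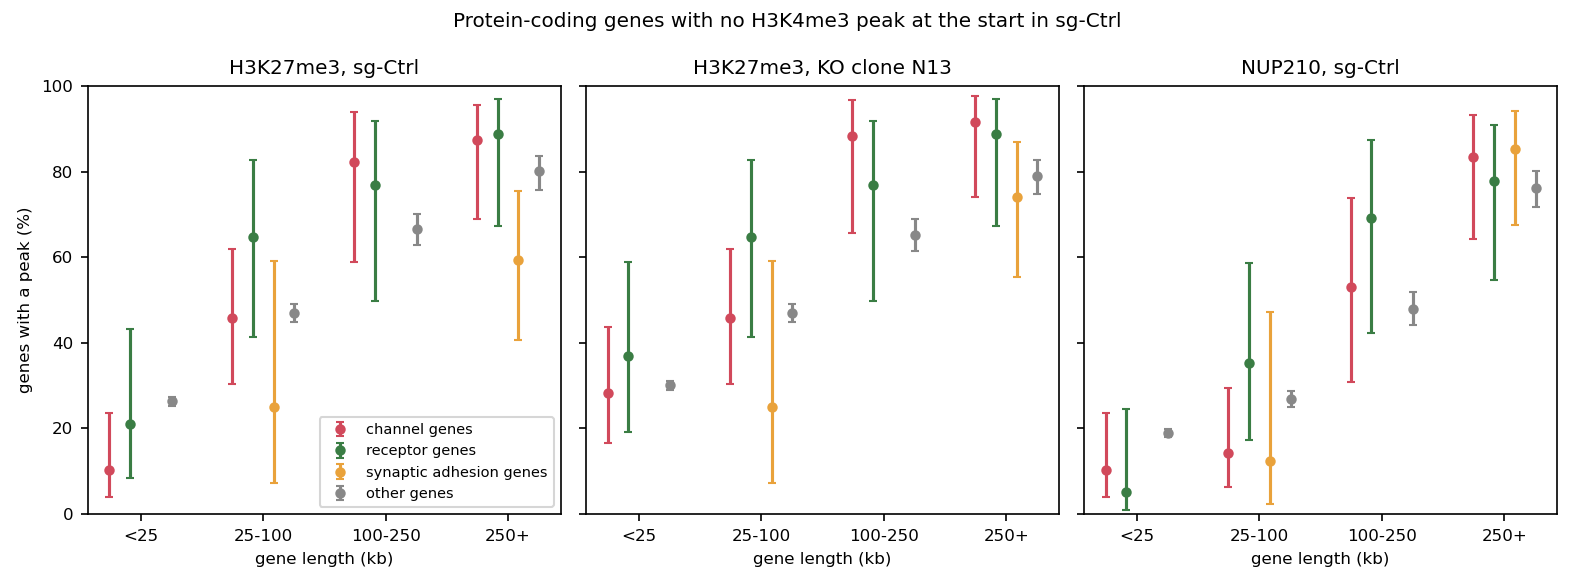
Points give the percent of genes with a peak (vertical axis) in 4 bands of gene length in kb (horizontal axis), for protein-coding genes with no H3K4me3 peak in sg-Ctrl, with 95% Wilson bars and only sets of at least 5 genes drawn. In every panel the share goes up with length for channel genes from the second band on, from 45.7% to 87.5% for H3K27me3 in sg-Ctrl and from 14.3% to 83.3% for NUP210.

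Of the 99 members, 77 matched a promoter in the RefSeq table by symbol. The median number of CpG in the 300 base window was 10 over the 100 channel genes with an entry, 23 of them in no list, and 14 over all 17274 promoters. Where H3K27me3 was listed on the gene body in KO alone, the median was 17 over 11 channel genes and 3 over 596 of all genes. A peak lay over the window itself in 4 of these 11, with 37 CpG in Kcna3, 26 in Scn4b and 4 each in Kcng4 and Scn4a. Over all 9 channel promoters under H3K27me3 in KO alone, 5 of them on genes with a peak elsewhere in sg-Ctrl, the median was 9. With H3K27me3 in sg-Ctrl, the medians were 10 over 45 channel genes and 5 over 3334 of all genes. With H3K4me3 and no H3K27me3, channel genes had 8 (15 genes) and all genes 22 (8860 genes). These sets go by a peak on the gene body or within 4 kb of the start, so many windows had no peak over them. Of the 77 windows, 10 lay under H3K27me3 in sg-Ctrl (median 9) and 17 in KO (median 9). Under H3K4me3 lay 10 in sg-Ctrl (median 9.5) and 12 in KO (median 12.5).

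REST is the repressor that keeps neuronal genes off outside neurons by binding RE1 elements, and 2 short letter strings of that element were searched on both strands of the windows. CAGCACC was found in 6.0% of channel promoters and 7.24% of all promoters, and GGACAGC in 11% and 6.88%. These letters say nothing of elements outside the window. All 17 genes examined for REST, its partners and Polycomb had H3K4me3 in both libraries, where 67.1% and 67% of all listed genes did, and none had H3K27me3. Their H3K4me3 log2 ratios had a median of -0.36, against -0.50 for all genes, and 2 of them, Ehmt1 and Suz12, were at least 2-fold lower, against 9.66% of all genes.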

How the data were processed

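Peak lists of 6 ChIP-seq libraries of 4T1 cells were used, 1 per condition. SICER was run by the authors on every library with IgG as control, and its window was 200 bp for H3K4me3 and 1000 bp for H3K27me3, NUP210 and NPC. For each peak the authors deposited counts of ChIP and IgG reads, a p-value with its FDR, a fold over IgG (a ratio scaled by library size) and the other measure used here, the overlap with a gene in bp. A peak with no IgG read has a deposited fold based on 0.25 reads. The submitters' processing notes name Trimmomatic, STAR, Picard and Bowtie2 with no versions, and builds mm9, mm10 and NCBIM37 with no roles. Symbols of 17213 genes were found in GRCm38.p6, and for 89.9% of them 1 end of the gene agreed within 50 bp with the lists. RNA-seq of 4 samples was not analysed here, and the 3 IgG samples were used through the IgG reads in the lists.

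Repeated entries of a peak were collapsed, and library ratios were recovered from counts and folds. Covered length is the part of a gene body under peaks, with an overlap of 1 bp or more. H3K4me3 is the peak within 4 kb of the start with the most scaled reads per kb. Calls were made at 2-fold. Shares have Wilson intervals, reads Poisson intervals and medians order-statistic intervals, all at 95%.

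The members and all lists were chosen with earlier results of these data known. Genes were named by longest cover, largest change in cover or H3K4me3, H3K4me3 in 1 library, highest NUP210 fold, both marks, clusters within 500 kb and being well known. Names beyond these complete a count or describe a class and were chosen after their values were seen. Results of some members are not reported here by name. Alternatives were stricter peaks (FDR of at most 0.01, fold of at least 2), other scalings and measures, pore-forming genes alone, other length bands, and, chosen after seeing the data, chromosomes left out, loci counted once, chromosome medians, unshared peaks and peaks within 1 kb of the start. The steps were tested on simulated data. Software was matplotlib 3.10.9, scipy 1.17.1, pandas 2.3.3 and numpy 2.4.6 under Python 3.11.15.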

Additional observations from a re-analysis of the deposited data

How the results depend on the processing

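No paired analysis was possible because each condition has 1 library. Of 92 values recomputed under alternatives, 67 stayed within their limit. Among the 37 members called for H3K27me3 cover, an FDR of at most 0.01 kept 37, full peak widths kept 36 and reversed Scn9a (-3.003 kb), and a fold over IgG of at least 2 kept 29, lost 7 and reversed Kcnt2 (-5.999 kb). The same fold left NUP210 on 6 members (4 of the 41 listed members of 100 kb or longer) and NPC on 1 (1 of 41), and H3K27me3 on 36.7% of long adhesion genes. Genes listed in both libraries gave 13 of 54 higher (24.1%, against 11.3% of all genes) and 7 lower (12.96%, against 6.95%). Under this setting members were above all genes in both directions. Without chromosomes 4, 8, 9 and 18, 17 of 58 were higher (29.3%, against 23.3%). Pore-forming genes alone gave 5 lower of 51 (9.80%, against 17.6% of all genes) and H3K4me3 on 13 in sg-Ctrl and 19 in KO. The median H3K27me3 log2 ratio was 1.90 with no scaling and -0.18 when each library's reads were divided by its own peak length. That of H3K4me3 was 0.22 with shared-peak scaling and 0.15 with none, where 0 members were 2-fold lower, and 2 were lower by total reads of the peak. At least 100 reads left 3 KO-alone and 0 sg-Ctrl-alone members, and peaks within 1 kb of the start left 2 higher. In the longest of 8 length bands, NUP210 was on 100% and NPC on 91.7% of 12 genes. Causes were not tested beyond the reads, peaks or genes each alternative removes.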
